A study of Rattus norvegicus with 24 samples.

Results

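The genes described here are 10 T cell genes, Cd3d, Cd3e, Cd3g, Cd8a, Cd8b, Cd4, Cd2, Cd5, Lck and Zap70, in the rat brain 3 months after traumatic brain injury (TBI). They were chosen by name, with earlier results of these data known, and each name matched 1 locus, so the 10 genes are 10 of 26641 loci with a gene name and of 42334 loci in all. Poly(A) RNA was sequenced from cortex beside the lesion and from thalamus on the injured side, in the same 12 adult male Sprague-Dawley rats, which gave 24 libraries. The 6 TBI rats had received a lateral fluid-percussion impact to the left parietal cortex, and the 6 sham rats had anaesthesia and craniectomy without an impact. The TBI rats had been picked for a prominent T2 signal around the lesion on magnetic resonance images, so they do not stand for all injured rats. Each group of a region held 6 libraries, 1 per rat, and rats are named by their numbers.

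A T cell recognises antigen through its receptor, which signals through the CD3 gamma, delta and epsilon chains (Cd3g, Cd3d and Cd3e). The coreceptors CD4 and CD8 bind the presenting molecule and bring the kinase Lck to the receptor, and Lck activates the kinase Zap70. CD8 on cytotoxic T cells usually pairs an alpha chain (Cd8a) with a beta chain (Cd8b). In the rat, CD4 is also carried by microglia and macrophages, so Cd4 by itself does not mark T cells in brain tissue.

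The promoters of Cd3e and Cd8a are shown for the CD3 and CD8 chains, and those of Lck because this gene has 2 start sites in the reference. The sequences are from RefSeq on GRCr8, not the build of the deposited positions, and run 5′ to 3′ on the gene's strand from 250 bases before the start site to 50 after it. Capitals mark matches on either strand to TGTGGT (a RUNX core), GGAAGT (an ETS core) or CTTTGA (a TCF and LEF core).
Cd3e promoter, chr8:54211721-54212020, minus strand: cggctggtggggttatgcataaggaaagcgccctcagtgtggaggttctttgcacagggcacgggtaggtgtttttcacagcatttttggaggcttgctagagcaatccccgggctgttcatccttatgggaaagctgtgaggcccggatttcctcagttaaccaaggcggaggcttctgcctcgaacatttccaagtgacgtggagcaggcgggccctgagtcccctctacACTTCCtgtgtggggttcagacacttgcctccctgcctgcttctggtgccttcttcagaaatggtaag
Cd8a promoter, chr4:104923866-104924165, plus strand: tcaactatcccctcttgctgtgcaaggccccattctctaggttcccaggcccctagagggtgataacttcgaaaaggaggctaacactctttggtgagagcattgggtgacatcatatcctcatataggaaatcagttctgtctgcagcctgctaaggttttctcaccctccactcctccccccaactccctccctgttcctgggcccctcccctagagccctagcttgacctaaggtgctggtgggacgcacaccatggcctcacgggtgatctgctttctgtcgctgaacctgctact
Lck, first window, promoter, chr5:147201218-147201517, minus strand: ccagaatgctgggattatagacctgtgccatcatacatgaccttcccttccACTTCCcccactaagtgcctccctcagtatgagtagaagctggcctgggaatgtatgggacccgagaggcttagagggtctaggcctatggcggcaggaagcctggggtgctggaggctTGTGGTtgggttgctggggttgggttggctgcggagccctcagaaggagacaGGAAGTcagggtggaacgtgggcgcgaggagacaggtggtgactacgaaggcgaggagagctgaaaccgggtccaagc
Lck, second window, promoter, chr5:147183601-147183900, minus strand: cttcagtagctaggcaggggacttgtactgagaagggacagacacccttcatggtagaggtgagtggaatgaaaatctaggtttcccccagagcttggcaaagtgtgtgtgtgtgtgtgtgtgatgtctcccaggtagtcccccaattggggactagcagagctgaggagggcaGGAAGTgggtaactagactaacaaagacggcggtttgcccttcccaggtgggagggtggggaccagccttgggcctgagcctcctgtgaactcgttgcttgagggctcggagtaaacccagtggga
A promoter was found for 8 of the 10 genes, in 9 windows, but not for Cd4 and Cd8b. TGTGGT was in 2 of the 9 windows (Cd2 and the first of Lck), GGAAGT in 5 (Cd3d, Cd3e, Cd5 and both of Lck) and CTTTGA in 2 (Cd3d and Zap70). The Cd8a and Cd3g windows held none of these letters, and no match overlapped another. Of 33469 promoters of this length, 17.3% held TGTGGT, 22.6% held GGAAGT and 16.1% held CTTTGA.

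Values are normalized counts, that is, sequenced fragments at a locus divided by a factor for the library. Libraries held 30568927 to 54608922 fragments, 1 fragment was worth 0.688 to 1.25 normalized counts, and the floor of 3 fragments was worth 2.06 to 3.76. Choroid plexus, a tissue inside the ventricles, stood out in 6 libraries, where its 9 markers summed to between 11780 and 273500 normalized counts against at most 3103 in the others. These were the cortex of sham rats 26 and 34 and TBI rat 45, and the thalamus of sham rats 34 and 50 and TBI rat 45. Of the results run again without these libraries, an alternative chosen after seeing the data, those that lost a call or turned a sign are given below.

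Cd4 was higher in TBI than in sham rats in both regions, and Cd8b was higher too, from almost no fragments in sham rats. The label of T cell genes had little support from the CD3 chains. Cd3d held 3 fragments or fewer in 14 of 24 libraries, Cd3g in 16 and Cd3e in 5, and no library held more than 43 fragments of a CD3 chain. In bulk tissue, fewer cells of a type and less RNA per cell cannot be told apart.

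Calls were made with limma at an adjusted p under 0.05, for loci whose mean over the fitted libraries reached 10 normalized counts. In cortex 6 of the 10 genes passed that filter and 1, Cd4, was called higher and none lower, where 14.3% of 15493 loci were called higher and 14.9% lower. In thalamus 4 passed, of which Cd8b did so only through its TBI libraries, so that nothing is read from its call. Of the other 3, Cd4 was called higher and none lower, where 14.5% of 15564 loci were called higher and 20.9% lower. For the difference of the injury effect between regions 1 of 5 was called, against 7.26% of 15678 loci. For thalamus against cortex, 4 of 5 were called in TBI rats and 3 of 5 in sham rats, against 60.6% and 61.4% of loci.

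**Figure D1:**
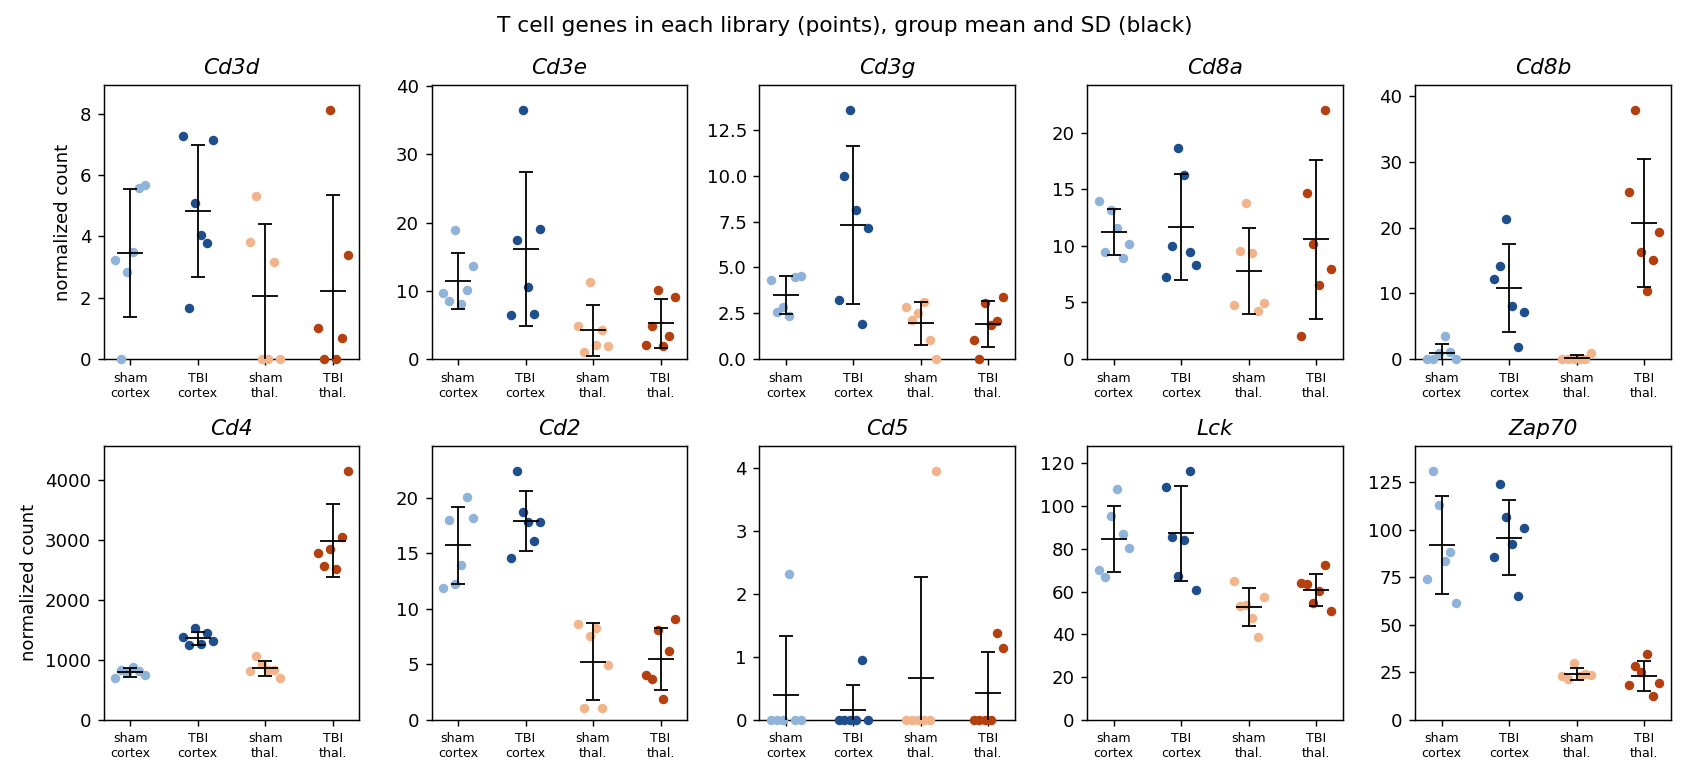
Normalized counts of the 10 genes (y axis, linear, its own scale in each panel) in sham cortex, TBI cortex, sham thalamus and TBI thalamus. Each point is 1 library of 6 per group, with the mean and an SD bar that is cut at 0. All TBI points lie above all sham points for Cd4 in both regions and for Cd8b in thalamus.

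The CD3 chains lay side by side on chromosome 8, Cd3g at 47892830 to 47898776, Cd3d at 47900376 to 47905113 and Cd3e at 47915625 to 47926788, as the files give positions. Cd3e, the epsilon chain, ran in cortex from 8.13 through a median of 9.87 to 18.9 in sham rats (11.5 ± 4.10, SD, n = 6) and from 6.46 through 14.0 to 36.5 in TBI rats (16.1 ± 11.3). TBI rats 45 and 63 lay above every sham rat, and rats 22 and 56 lay below every one. The log2 fold change was 0.27 ± 0.38 (SE), with a 95% interval of -0.53 to 1.07 (limma, adjusted p = 0.623). Without the choroid-rich libraries it was 0.13 (adjusted p = 0.845), and without rat 45 alone it was -0.0071. In thalamus Cd3e was at 4.23 ± 3.73 in sham and 5.25 ± 3.57 in TBI rats, with overlapping ranges (exact permutation test, two-sided, adjusted p = 1). The highest Cd3e value of each of the 4 groups came from a library rich in choroid plexus transcripts, 36.5 and 10.2 in cortex and thalamus of TBI rat 45, and 18.9 and 11.3 in those of sham rat 34. The part of that tissue in these values was not tested.

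Cd3g, the gamma chain, was at 3.51 ± 1.03 in sham cortex and 7.33 ± 4.32 in TBI cortex. TBI rats 24, 45, 52 and 63 lay above every sham rat, while rat 56 lay below. The 50 fragments of TBI cortex against 20 of sham cortex gave a ratio of 2.15, with an exact 95% interval of 1.25 to 3.81 that covers counting error only. Over rats, the difference of 3.82 had an exact permutation p of 0.0563 (two-sided), or 0.281 adjusted over the 10 tests of genes under the filter. In thalamus 12 fragments in TBI rats stood beside 11 in sham rats.

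Cd3d, the delta chain, was at 3.47 ± 2.09 in sham and 4.84 ± 2.15 in TBI cortex, and at 2.05 ± 2.35 and 2.21 ± 3.16 in thalamus. Ranges overlapped in both regions, and neither difference passed (exact permutation test, adjusted p = 0.952 and 1). Over the 12 TBI libraries, after each region's mean was removed, the 3 chains correlated with r = 0.453 (Cd3d with Cd3e), 0.340 (Cd3d with Cd3g) and 0.661 (Cd3e with Cd3g). Among 15730 named loci, the deviations most like the mean of the 3 chains were those of Selenbp1 (r = 0.951), Trim35 (0.898), Tmem64 (0.891), Trpv3 (0.884) and Ak3 (0.884). These are descriptions over libraries that include rat 45 in both regions. How high the top r of 15730 loci would run by chance was not tested.

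Cd8b, the beta chain of CD8 (chromosome 4, 163964374 to 163980435), had a clear split in thalamus. In sham thalamus 5 libraries held 0 fragments and rat 55 held 1. The TBI thalamus libraries of rats 22, 24, 45, 52, 56 and 63 held 25, 31, 16, 11, 22 and 17 fragments, or 25.4, 37.9, 16.3, 10.3, 15.1 and 19.3 normalized counts (20.7 ± 9.78). Rat 24 was highest, rat 52 lowest, and every TBI rat lay above every sham rat. The 122 fragments against 1 gave a ratio of 113, with an exact 95% counting interval of 19.9 to 4486. This rise was among the results known when the genes were chosen, so it is given as a description. Which cells made these transcripts was not tested.

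In cortex Cd8b was at 0, 0, 0.944, 3.48, 1.12 and 0 in sham rats 26, 32, 34, 38, 50 and 55. In TBI rats 22, 24, 45, 52, 56 and 63 it was at 12.1, 14.1, 21.2, 8.11, 1.90 and 7.14. Rat 56 lay within the sham range and the other 5 above it. The 75 fragments against 5 gave a ratio of 12.9 (5.28 to 40.8), and the mean difference was 9.85 (exact permutation test, two-sided, p = 0.00433, adjusted p = 0.0433 over 10 tests). The 10 genes were chosen with earlier results of these data known, so this test too is given as a description. The adjusted p was 0.0866 when any 1 library was left out other than sham rat 38 or TBI rat 56. Over all libraries left out in turn, those of these rats included, the difference ran from 7.76 to 11.6. With 1 library out, 0.0866 is the lowest adjusted p this test allows 1 gene of 10 while rat 56 lies below sham rat 38. Without the 3 choroid-rich cortex libraries the difference was 7.53 (adjusted p = 0.318), but 5 rats against 4 allow 1 gene of 10 no adjusted p below 0.159 in this exact permutation test.

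Cd8a, the alpha chain (chromosome 4, 164017632 to 164021869), had overlapping groups. In thalamus it ran from 4.20 through a median of 7.14 to 13.8 in sham rats and from 2.03 through 9.05 to 22.0 in TBI rats. The difference of 2.80 did not pass (exact permutation test, p = 0.418, adjusted p = 1). In cortex it was at 11.2 ± 2.06 in sham and 11.7 ± 4.65 in TBI rats, a log2 fold change of -0.01 (95% interval -0.56 to 0.54, limma adjusted p = 0.985). Rat 22 had the lowest Cd8a of the TBI thalamus libraries, 2.03, and the second highest Cd8b, 25.4.

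**Figure D2:**
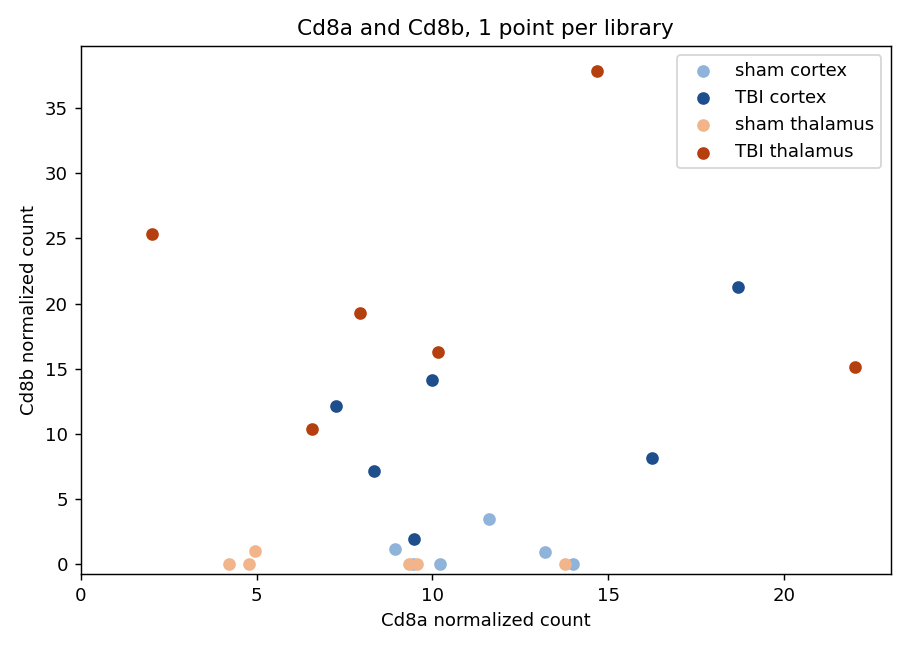
Normalized count of Cd8b (y axis) against Cd8a (x axis), 1 point per library, coloured by group. Sham libraries stay between 0 and 3.48 on the Cd8b axis, while TBI thalamus libraries lie from 10.3 to 37.9 at Cd8a values from 2.03 to 22.0.

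The genes around Cd8b were read after its values were seen. Krcc1, upstream, was at 780 ± 70.5 in sham and 861 ± 125 in TBI cortex, and at 1005 ± 73.8 and 1363 ± 207 in thalamus. Gm1070, which lies between Krcc1 and Cd8b, was at 2.89 ± 2.57 in sham and 3.16 ± 4.17 in TBI thalamus. Whether reads of a neighbour entered the Cd8b locus was not tested.

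Cd4, the coreceptor of helper T cells and in the rat also a protein of microglia and macrophages (chromosome 4, 224399637 to 224426147), had ample counts. In cortex it ran from 689 through a median of 794 to 882 in sham rats and from 1243 through 1338 to 1525 in TBI rats. In thalamus it ran from 698 through 828 to 1063 in sham rats and from 2511 through 2817 to 4153 in TBI rats. No TBI library overlapped a sham library in either region, and TBI rat 63 was highest in thalamus. The log2 fold change was 0.78 ± 0.07 (SE) in cortex (limma with Benjamini-Hochberg adjustment, adjusted p = 4.50e-06) and 1.78 ± 0.12 in thalamus (adjusted p = 1.97e-07). As ratios of fragments these were 1.72 (1.66 to 1.78) and 3.47 (3.36 to 3.58), with counting intervals.

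The Cd4 rise was larger in thalamus, by 1.00 ± 0.14 on the log2 scale (95% interval 0.70 to 1.30, limma adjusted p = 0.000129). Thalamus exceeded cortex by 1.12 in TBI rats (adjusted p = 6.59e-10), and by 0.12 in sham rats (95% interval -0.09 to 0.33, adjusted p = 0.321). In order of level, TBI thalamus came first and TBI cortex next, and the sham regions did not differ beyond their spread.

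Microglia and macrophage markers moved with Cd4. Of 13 measured, 12 were called higher in cortex and 13 in thalamus, against 14.3% of all loci in cortex and 14.5% in thalamus. Their sum ran from 17010 to 18060 in sham and 24150 to 27160 in TBI cortex, and from 18240 to 23700 in sham and 36700 to 47350 in TBI thalamus. Cd4 as a percent of that sum, a measure chosen after seeing the data, was 4.47 ± 0.43 in sham and 5.23 ± 0.34 in TBI cortex, where the groups overlapped. It was 4.09 ± 0.47 in sham and 7.17 ± 0.95 in TBI thalamus, where they did not. The part of these cells in the Cd4 values was not tested.

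**Figure D3:**
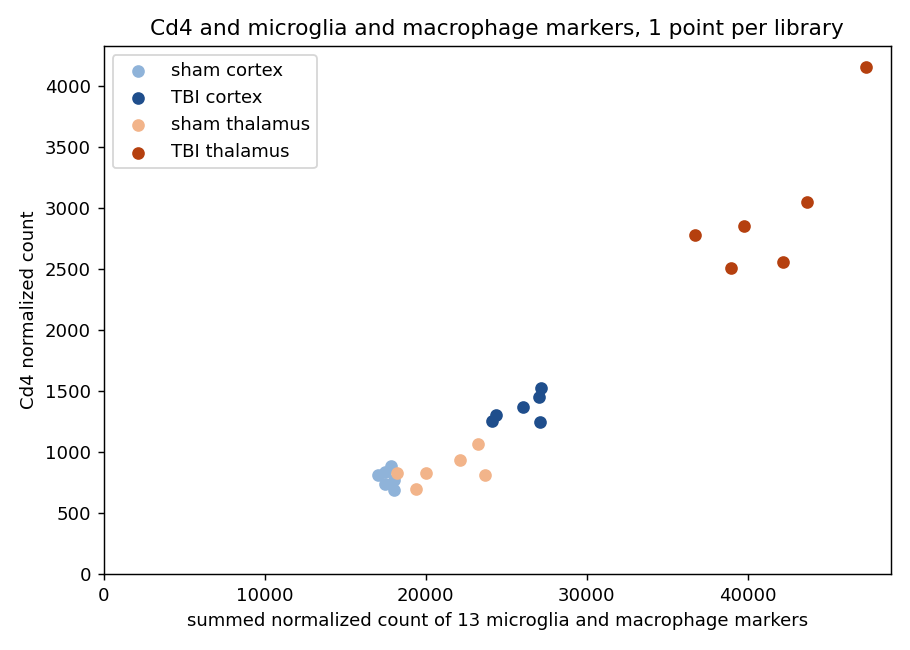
Normalized count of Cd4 (y axis) against the summed normalized counts of 13 microglia and macrophage markers (x axis), 1 point per library, coloured by group. TBI thalamus lies highest on both axes, with Cd4 from 2511 to 4153, and rat 63 is the topmost point.

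Cd2, an adhesion receptor of T cells and natural killer cells, ran from 11.8 through a median of 16.0 to 20.1 in sham cortex and from 14.5 through 17.9 to 22.5 in TBI cortex. The groups overlapped, with a log2 fold change of 0.19 (95% interval -0.23 to 0.61, limma adjusted p = 0.492). In thalamus it was at 5.24 ± 3.49 in sham and 5.50 ± 2.78 in TBI rats (exact permutation test, adjusted p = 1). Cd5, an inhibitory receptor of T cells, held 0 fragments in 19 of 24 libraries and 10 fragments in all, too few to show a difference at this depth.

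**Figure D4:**
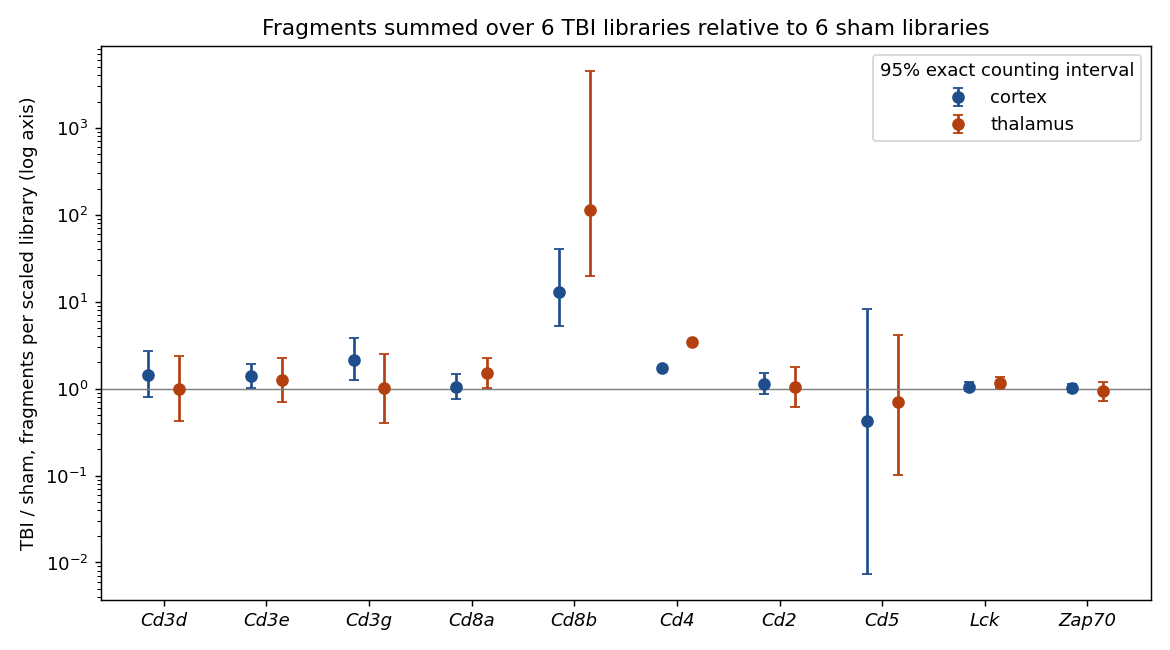
Ratio of TBI to sham fragments, scaled by library (logarithmic axis), for each gene in cortex and thalamus. Bars are exact 95% intervals for counting error only. The whole intervals of Cd8b (ratios 12.9 in cortex, 113 in thalamus) and Cd4 (1.72 and 3.47) lie above 1 in both regions. The ratios of Cd3e, Cd8a, Cd2 and Lck also exceed 1 in both regions, but not their whole intervals. Those of Cd3d and Cd3g exceed 1 in cortex (1.45 and 2.15) and lie at 1.00 and 1.01 in thalamus. For Cd3e and Cd3g only the cortex interval lies wholly above 1, and for Cd8a and Lck only the thalamus interval.

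Lck, the kinase bound to the coreceptors, ran from 66.9 through a median of 83.8 to 108 in sham cortex and from 60.7 through 85.0 to 117 in TBI cortex. In thalamus it ran from 38.9 through 53.5 to 64.9 in sham and from 51.0 through 61.8 to 72.2 in TBI rats. Groups overlapped in both regions, with log2 fold changes of 0.02 (95% interval -0.34 to 0.39, limma adjusted p = 0.931) and 0.22 (-0.10 to 0.53, adjusted p = 0.272).

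Zap70, the kinase that docks on the phosphorylated receptor chains, was at 92.0 ± 25.8 in sham and 95.9 ± 19.9 in TBI cortex, and at 24.2 ± 3.06 and 23.0 ± 7.99 in thalamus. Groups overlapped again, and TBI thalamus spread more widely, from 12.4 to 34.7, than sham thalamus, from 21.2 to 30.0. The log2 fold changes were 0.08 (95% interval -0.32 to 0.47, limma adjusted p = 0.783) in cortex and -0.13 (-0.62 to 0.37, adjusted p = 0.706) in thalamus.

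Lck, Zap70 and Cd2 were lower in thalamus than in cortex. In sham rats the log2 differences were -0.67 (adjusted p = 0.000700), -1.85 (2.36e-08) and -1.67 (0.000406) by limma, and no thalamus library overlapped a cortex library. In TBI rats they were -0.48 (adjusted p = 0.0113, with overlap), -2.06 (3.94e-09) and -1.65 (0.000465). Cd8a gave -0.57 in sham (95% interval -1.34 to 0.19, adjusted p = 0.186) and -0.31 in TBI rats (-1.07 to 0.45, adjusted p = 0.486). For these 4 genes the difference of the injury effect between regions did not pass (limma adjusted p from 0.670 to 0.994).

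Over the 6 TBI rats, Lck kept the same order of rats in cortex and thalamus, from rat 63 up to rat 56. On the log2 scale, r was 0.952 and Spearman's rho 1 (exact permutation of pairings, two-sided, p = 0.00278 each, adjusted p = 0.0139 over 5 genes), and r was 0.882 without the 2 rats farthest from the cortical median. With any 1 rat left out r stayed between 0.918 and 0.990. The adjusted p was then 0.0833, the lowest that 5 rats allow 1 gene of 5 in this test, except without rat 52. There it was 0.0417, as Zap70 had the same lowest p. These adjusted p values therefore say nothing about stability. The sham rats did not keep their order for Lck. Rat 38 was highest in cortex (108) but at 47.7 in thalamus, and rat 26 was highest in thalamus (64.9) but at 70.0 in cortex. Libraries of the same rat also correlated over all fitted loci (median 0.187). The share of all loci that keep such an order was not tested. For the other 4 genes neither coefficient passed by the exact permutation test. Zap70 gave r = 0.732 (p = 0.106, adjusted p = 0.264) and rho = 0.657 (p = 0.175, adjusted p = 0.438), and r = 0.138 without the 2 farthest rats. Without rat 52 its r was 0.971 (adjusted p = 0.0417, exact permutation). The r, rho and r without the 2 farthest rats were 0.366, 0.429 and 0.796 for Cd8b, 0.227, 0.314 and 0.938 for Cd8a, and 0.118, 0.543 and 0.306 for Cd4. The labels name no batch, so no value within batches is given.

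**Figure D5:**
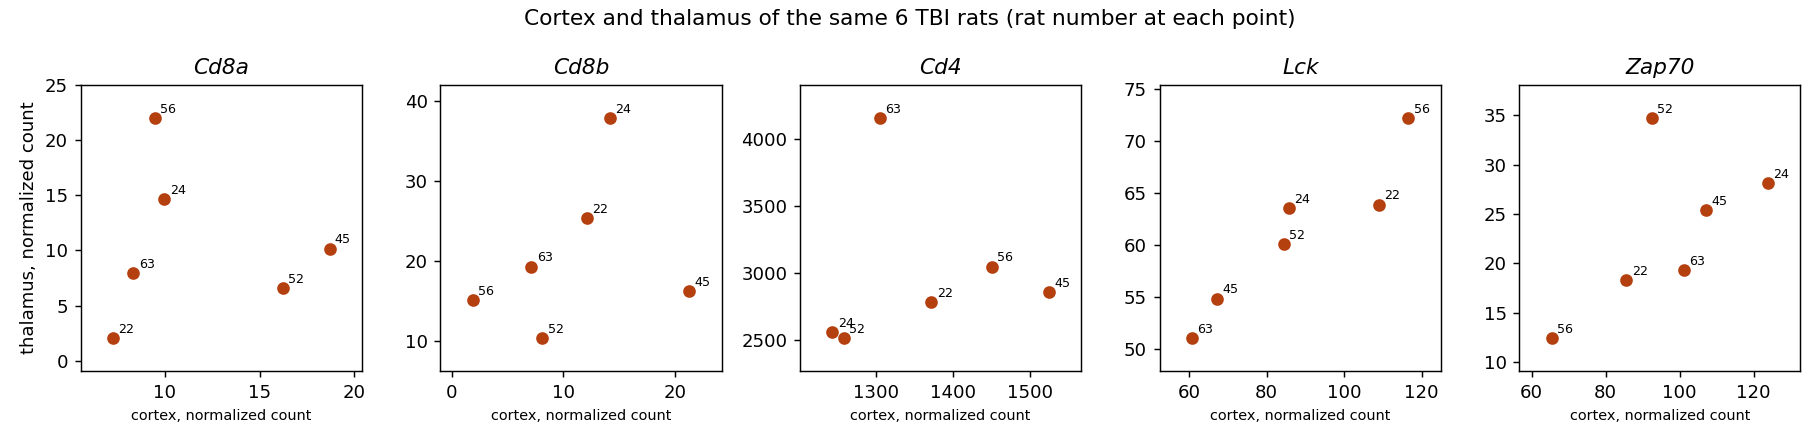
Normalized count in thalamus (y axis) against cortex (x axis) of the 6 TBI rats, 1 panel per gene, on axes that do not start at 0. Lck rises in the same order in both regions, from 60.7 and 51.0 in rat 63 to 117 and 72.2 in rat 56.

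Genes that act with the receptor were called in part. Of 26 genes of T cell receptor signalling and costimulation, 15 passed the filter in cortex, with 5 higher, 1 lower and a median log2 fold change of 0.10 against -0.01 over all loci. In thalamus 16 passed, with 6 higher, none lower and a median of 0.36 against -0.02. The share of all loci, 14.3% higher and 14.9% lower in cortex and 14.5% and 20.9% in thalamus, stands beside these counts and those of the lists that follow. Ptprc, the leukocyte phosphatase CD45 that microglia also carry, rose from 232 ± 18.3 to 390 ± 51.2 in cortex (0.74 ± 0.09, adjusted p = 5.12e-05, limma) and from 219 ± 26.9 to 665 ± 92.7 in thalamus (1.60 ± 0.11, adjusted p = 1.65e-07). Fyb, an adaptor whose locus overlaps C9, rose by 0.68 and 1.48. Cd6, a receptor related to CD5, rose by 1.03 in thalamus and by 0.46 in cortex, where the call was lost without sham rat 26, TBI rat 22 or TBI rat 45, and without the choroid-rich libraries (adjusted p = 0.147). Grap2, an adaptor, rose by 1.15 in thalamus (adjusted p = 0.00988). The gene that fell in cortex was Tnfrsf9, a costimulatory receptor named after its values were seen, from 50.9 ± 11.6 to 24.9 ± 7.03.

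Of 21 transcription factor and homing genes, 8 passed in each region, with 3 higher and none lower in cortex and 3 higher and 1 lower in thalamus (medians 0.15 and 0.20). Cd44, an adhesion receptor that glia also make, rose by 2.08 in cortex and 1.80 in thalamus, and Itgal, a leukocyte integrin chain, by 1.09 and 1.94. Il2ra, a chain of the interleukin 2 receptor, rose by 0.74 in cortex (limma adjusted p = 0.0359), a call lost without the choroid-rich libraries (adjusted p = 0.122), in a fit of all 24 libraries (0.231), with no filter (0.0550), and without sham rat 34 or 50 or TBI rat 24, 45 or 52. The gene that fell in thalamus was Lef1, named after its values were seen, from 4696 ± 809 to 3210 ± 304. In sham cortex it was at 347 ± 40.4. Which cells made Lef1 was not tested, so its fall is not read as one of T cells.

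Of 16 cytotoxic genes, 4 passed in cortex, with 1 higher, and 2 in thalamus, with none called by limma, too few to set against the 14.3% and 14.5% of all loci called higher. Gzmm, a granzyme gene, rose from 306 ± 68.0 to 449 ± 83.3 in cortex (0.56 ± 0.15, adjusted p = 0.0115), and without the choroid-rich libraries its value was 0.39 (adjusted p = 0.0876). In a fit of all 24 libraries its adjusted p was 0.200. Gzmb, Klrg1 and Klrc1 held 3 fragments or fewer in every library. Of 9 genes listed with the inhibitory receptors, 5 passed in each region, with 2 higher and 1 lower in cortex and 3 higher in thalamus (medians 0.24 and 0.97). Lag3, whose locus overlaps another, went from 8.63 ± 2.12 to 18.7 ± 3.59 in cortex and from 7.66 ± 3.00 to 40.5 ± 7.20 in thalamus. The counts of higher genes and the medians of both regions include Lag3. It passed the filter only through its TBI libraries, so nothing is read from its calls. Havcr2, also made by microglia, rose by 0.97 and Cd244 by 1.23 in thalamus. In cortex Havcr2 rose by 0.24 and Tox, a nuclear factor on this list and not a receptor, fell by 0.27. Both calls were lost without the choroid-rich libraries (limma adjusted p = 0.0834 and 0.136). The call of Havcr2 was also lost in a fit of all 24 libraries (0.0998), with no filter (0.0532), and without sham rat 26, 38 or 55 or TBI rat 22 or 56. That of Tox was also lost with upper quartile scaling (0.0524), and without sham rat 34, 38 or 50 or TBI rat 22 or 45.

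Markers of other cells were read beside these genes. Of 7 natural killer cell loci none passed the filter, and Klri1 and Klri2 held 3 fragments or fewer in every library. Of 11 B cell markers 1 passed in cortex and was higher, and 4 passed in thalamus, with 2 higher and 1 lower, where 14.3% of loci in cortex and 14.5% in thalamus were called higher and 20.9% in thalamus lower. Cd22, a lectin of B cells also found on microglia, rose by 2.64 in cortex and 3.29 in thalamus, and Cr2 fell by 1.30 in thalamus. Tnfrsf13c, at 6.71 ± 3.19 in sham and 61.6 ± 16.0 in TBI thalamus, is counted among the higher B cell markers there. It passed the filter only through its TBI libraries, so nothing is read from its call. Neuron markers gave 8 of 10 lower in each region (medians -0.29 and -0.48), against 14.9% and 20.9% of loci. Of 3 neutrophil markers that passed in each region, 1 was higher (Csf3r) in each and 1 lower (Mmp9) in cortex. Of dendritic cell markers 5 passed in cortex and 4 in thalamus, 2 higher in each (Itgax and Batf3) and 1 lower (Flt3) in thalamus. Of 6 perivascular macrophage markers that passed in each region, 3 were higher in cortex (Stab1, F13a1 and Mrc1) and 1 in thalamus (Siglec1). Itgax in both regions and Batf3 in cortex passed the filter only through their TBI libraries, so nothing is read from these calls. Without the choroid-rich libraries the calls of Mmp9, Itgax, F13a1 and Mrc1 in cortex and of Siglec1 in thalamus were lost, and that of Mmp9 also without sham rat 38 or TBI rat 22 or 45. In a fit of all 24 libraries Mmp9 and Mrc1 in cortex were not called (limma adjusted p = 0.360 and 0.114). Of 6 erythroid and platelet loci that passed in each region, 2 were higher in cortex (Itga2b and Pf4) and none in thalamus. Of 9 choroid plexus markers none was called in either region. The part of these other cells in the values of the 10 genes was not tested.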

How the data were processed

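The authors made stranded poly(A) libraries, aligned them with TopHat2 2.0.11 and Bowtie2 2.2.2 to a genome that the study names RGSC3.4, and assembled transcripts with Cufflinks 2.2.1 under an Ensembl Rnor_5.0 annotation. The deposited table gives a signal per locus and library, namely fragments over a library's size factor. Whole fragments were recovered for 99.97% to 99.99% of values within 0.1 fragment. The 15693 loci without a gene name (1.90% to 2.23% of the counts) were not tested.

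The 10 genes and all lists were chosen with earlier results of these data known. Beside the 10 genes, the text names up to 4 called genes per list with the largest change in either region, the cytotoxic, B cell and natural killer genes at 3 fragments or fewer in all 24 libraries, and the 5 loci most like the CD3 chains. The rule's protein comparison was not done here, and some genes the rule names are not reported here. Limma 3.58.1 (R 4.3.3) was fitted to log2(normalized count + 1), a scale that understates changes of low genes, within each region, and over all 24 libraries for contrasts between regions. Only loci whose mean reached 10 entered, with Benjamini-Hochberg adjustment over all of them. It stands in for Cuffdiff, which needs aligned reads. Genes under the filter had an exact two-sided permutation test (smallest p 0.00216). The fits were tested on simulated data. On the recovered fragments, edgeR 4.0.16 called 4435 loci in cortex, 5122 in thalamus and 1090 for the difference between regions, and DESeq2 1.42.0 was a further alternative. Alternatives also covered scaling, filter, pseudocount, threshold, left-out libraries and rat as a block. Each rat gave both regions. The correlation between its 2 libraries, each taken relative to its group mean, had a median of 0.187 and passed 0.1 in 10 of 12 rats. Replicates are separate rats.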

Additional observations from a re-analysis of the deposited data

Results flagged for a closer look

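Among 40 groups of 6 libraries, 8 held a library set far apart from the other 5. Chance alone flags about 1 in 20 groups of normally distributed values. A group with 5 libraries at 0 is flagged by any fragment in the other, so the 8 are not set against that share. In thalamus, Cd4 was at 4153 in TBI rat 63, where the summed microglia and macrophage markers were also highest. Sham rat 34, whose thalamus was rich in choroid plexus transcripts, stood high in thalamus for Cd3e (11.3) and Zap70 (30.05). Cd8b was at 3.48 (3 fragments) in the cortex of sham rat 38 and at 0.989 (1 fragment) in the thalamus of sham rat 55. Cd5 was at 2.32 in the cortex of sham rat 38, 0.948 in the cortex of TBI rat 56 and 3.96 in the thalamus of sham rat 55, with the other libraries of those groups at 0.

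The effect of injury on Cd4 was larger in thalamus than in cortex by 1.00 on the log2 scale (limma, adjusted p = 0.000129), with no overlap of TBI and sham rats in either region.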

How the results depend on the processing

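Cd4 kept its call in both regions and in the difference between them under every alternative run, at 0.70 to 0.82 in cortex, 1.68 to 1.84 in thalamus and 0.90 to 1.11 for the difference (log2). The count of called members was 2 in cortex with no filter, where Cd8b entered. In thalamus it was 2 with Cd8b counted, and 1 with a mean of at least 50 and with all 24 libraries in 1 fit, and 1 to 2 over left-out libraries, since Cd8b then fell under the filter in some. With a threshold of 0.01, 2436 loci were called in cortex, 3429 in thalamus and 404 for the difference. Without the choroid-rich libraries, chosen after seeing the data, 2162 were called in cortex and 422 for the difference, and 0 low members passed, where 5 rats against 4 allow no adjusted p below 0.159 for 1 gene of 10 in the exact permutation test, so this 0 says nothing about stability. Over left-out libraries 0 to 1 low members passed, and 0 to 2 genes correlated between regions. Cd8b in cortex could pass only without sham rat 38 or TBI rat 56, whose values cross. With 5 rats, 1 gene of 5 can reach no adjusted p below 0.0833 by exact permutation of pairings. Neither count therefore speaks to stability. The split of thalamic calls was 2259 higher and 3257 lower, against 2796 and 2357 with TMM scaling, 2659 and 2421 with upper quartile scaling and 2822 and 2300 with edgeR. For the difference between regions it was 427 and 711, against 566 and 524 with edgeR. Lck between regions in TBI rats (adjusted p = 0.0113, limma) missed a threshold of 0.01. With rat as a replicate block, 1, 4 and 3 members and 1301, 9775 and 9901 loci were called for the difference and for the regions in TBI and in sham rats, and no member call changed.

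Signs turned only for values that had passed no test, and the cause was not tested. Values are log2 fold changes, except for Cd5 and, in thalamus, Cd2, Cd3d and Cd3g, which are differences of mean normalized counts. Cd8a in cortex was 0.00869 with upper quartile scaling, 0.00366 with a pseudocount of 5, 0.0747 with edgeR and 0.0773 with DESeq2. F13a1 in thalamus was 0.0187 with TMM scaling, 0.00991 with upper quartile scaling, 0.0425 with edgeR and 0.0208 with DESeq2. The Cd2 difference between regions was -0.0820 with a pseudocount of 5, -0.0840 with edgeR, -0.106 with DESeq2 and -0.0848 without choroid-rich libraries. Without those libraries Il2ra was -0.10, Cd3d -1.26 and Cd2 -0.751 in thalamus. Cd3g in thalamus was 0.0237 with TMM scaling and Cd5 was 0.00545 as a difference of log2 values. Over left-out libraries, cortical values ran from -0.151 to 0.0993 (Cd8a), -0.00712 to 0.459 (Cd3e), -0.0660 to 0.120 (Lck), -0.0278 to 0.190 (Zap70) and -0.387 to 0.158 (Cd5). Thalamic values ran from -0.430 to 0.339 (Cd3g), -1.02 to 0.811 (Cd3d), -0.583 to 0.980 (Cd2), -0.433 to 0.418 (Cd5), -0.257 to 0.0266 (Zap70), -0.139 to 0.0479 (F13a1) and -0.258 to 0.497 (Il2ra). The Cd2 difference between regions ran from -0.254 to 0.223, Cd8a between regions in TBI rats from -0.450 to 0.0242, and r between regions from -0.419 to 0.443 (Cd8a) and -0.0944 to 0.870 (Cd4).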
